A study of Arabidopsis thaliana with 8 samples.

Results

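Copper microRNAs and the genes around them were followed in leaf mRNA of Arabidopsis thaliana, in the dcl1 mutant and in wild type. The set held 10 loci, chosen by locus name: 4 mRNAs listed as targets of miR398 (CSD1, CSD2, CCS1 and COX5b-1), 3 laccase mRNAs listed as targets of miR397 (LAC2, LAC4 and LAC17), the miR408 target plantacyanin, and the copper response genes SPL7 and FSD1. All 10 were among the 22546 loci that the count files list. The study set HD adapters, which end in random bases at the ligation site, against standard Illumina adapters, and made both kinds of library from the same RNA samples.

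There were 4 groups of 2 libraries: dcl1 with HD adapters, dcl1 with standard adapters, wild type with HD adapters and wild type with standard adapters. All plants were grown in chambers under long days without a treatment, and RNA came from leaves. The labels give neither the dcl1 allele nor the copper supply. They do not say whether replicates were separate plants, so the p-values here rest on the spread of samples that may be technical repeats. The 8 libraries thus come from 4 RNA samples, and held between 15772958 and 45929383 counts. Ribosomal RNA loci took 17.3% to 28.7% of a library.

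DCL1 cuts microRNAs out of their precursors. When copper is scarce, the transcription factor SPL7 turns on the genes of miR398, miR397 and miR408, and these microRNAs lower the mRNAs of dispensable copper proteins, so that copper is kept for plastocyanin. In the same response the copper/zinc superoxide dismutases CSD1 and CSD2 give way to the iron superoxide dismutase FSD1, whose gene SPL7 activates.

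The microRNAs are shown because the 8 target mRNAs are grouped by the microRNA they are listed for. Each was read from the TAIR10.1 genome at its RefSeq annotation, 5′ to 3′, with the seed (bases 2 to 8) in capitals. The miR398 forms share 1 seed, and so do both miR397 forms.
miR398a-3p: uGUGUUCUcaggucaccccuu
miR398b-3p: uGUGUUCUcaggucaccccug
miR397a: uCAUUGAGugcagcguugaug
miR397b: uCAUUGAGugcaucguugaug
miR408-3p: aUGCACUGccucuucccuggc

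The best-pairing site of each target mRNA is given below, 5′ to 3′ on the strand of the gene, to show how closely each target matches. Capitals mark bases that form a Watson-Crick pair with the microRNA, and lower case marks mismatches, G:U pairs and bulged bases.
CSD1: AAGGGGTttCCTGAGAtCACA
CSD2: tgcGGGTGACCTGgGAAaCAtA
CCS1: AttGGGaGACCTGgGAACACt
COX5b-1: AAGGtGTGACCTGAGAAtCACA
LAC2: aATCAAtGCTGCACTCAATGA
LAC4: agTCAACGCTGCACTtAATGA
LAC17: aATCAAtGCTGCACTtAATGA
plantacyanin: cCaAGGGAAGAGGCAGTGCAT

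The sites of CSD1 and COX5b-1 lie in the 5′ UTR, and the other 6 lie in coding sequence. That of CSD1 is joined across an intron (chr1:2827177-2827685, plus strand), and those of CSD2 (chr2:12015572-12015593, plus strand) and COX5b-1 (chr3:5299204-5299225, plus strand) hold 1 bulged base. The LAC2 site, at chr2:12526364-12526384 on the minus strand, had the best weighted score of all sites listed. Of 27438 loci searched with that score, only LAC2 itself (0.00364%) reached it. By plain count COX5b-1 had more Watson-Crick pairs, 20 against 19 for LAC2. The CSD2 site had the poorest score, and 0.131% of loci, CSD2 among them, had a site as good. For SPL7 and FSD1, 0.867% to 54.9% of loci had a site as good as theirs for these microRNAs. These matches describe the letters of the mRNAs and show neither binding nor cutting.

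Only FSD1 differed between the genotypes past the threshold, and it was lower in dcl1. Levels are given as CPM (counts scaled to a common library size) after TMM scaling. Folds are log2 values of dcl1 over wild type, and a locus was called at a Benjamini-Hochberg adjusted p under 0.05 in edgeR's quasi-likelihood test over all loci. All 10 genes passed the filter on low counts. On counts summed over the adapters of each RNA sample, with libraries matched by replicate number, 1 of the 10 was called. Over all 19711 loci tested, 8.85% were called, and 1 of 10 is near that share. The median fold of the 10 was -0.07, against 0.01 over all loci tested. With HD adapters 0 of the 10 were called, where 4.33% of 19521 loci were, with 2 of the 10 at an unadjusted p under 0.05 and 2 called by DESeq2. With standard adapters 0 were called, where 4.23% of loci were, with 1 at an unadjusted p under 0.05 and 0 called by DESeq2. Of all 19521 loci DESeq2 called 1222 with HD adapters and 1247 with standard adapters. In tissue samples such as these, fewer cells of a type and less RNA per cell cannot be told apart.

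**Figure D1:**
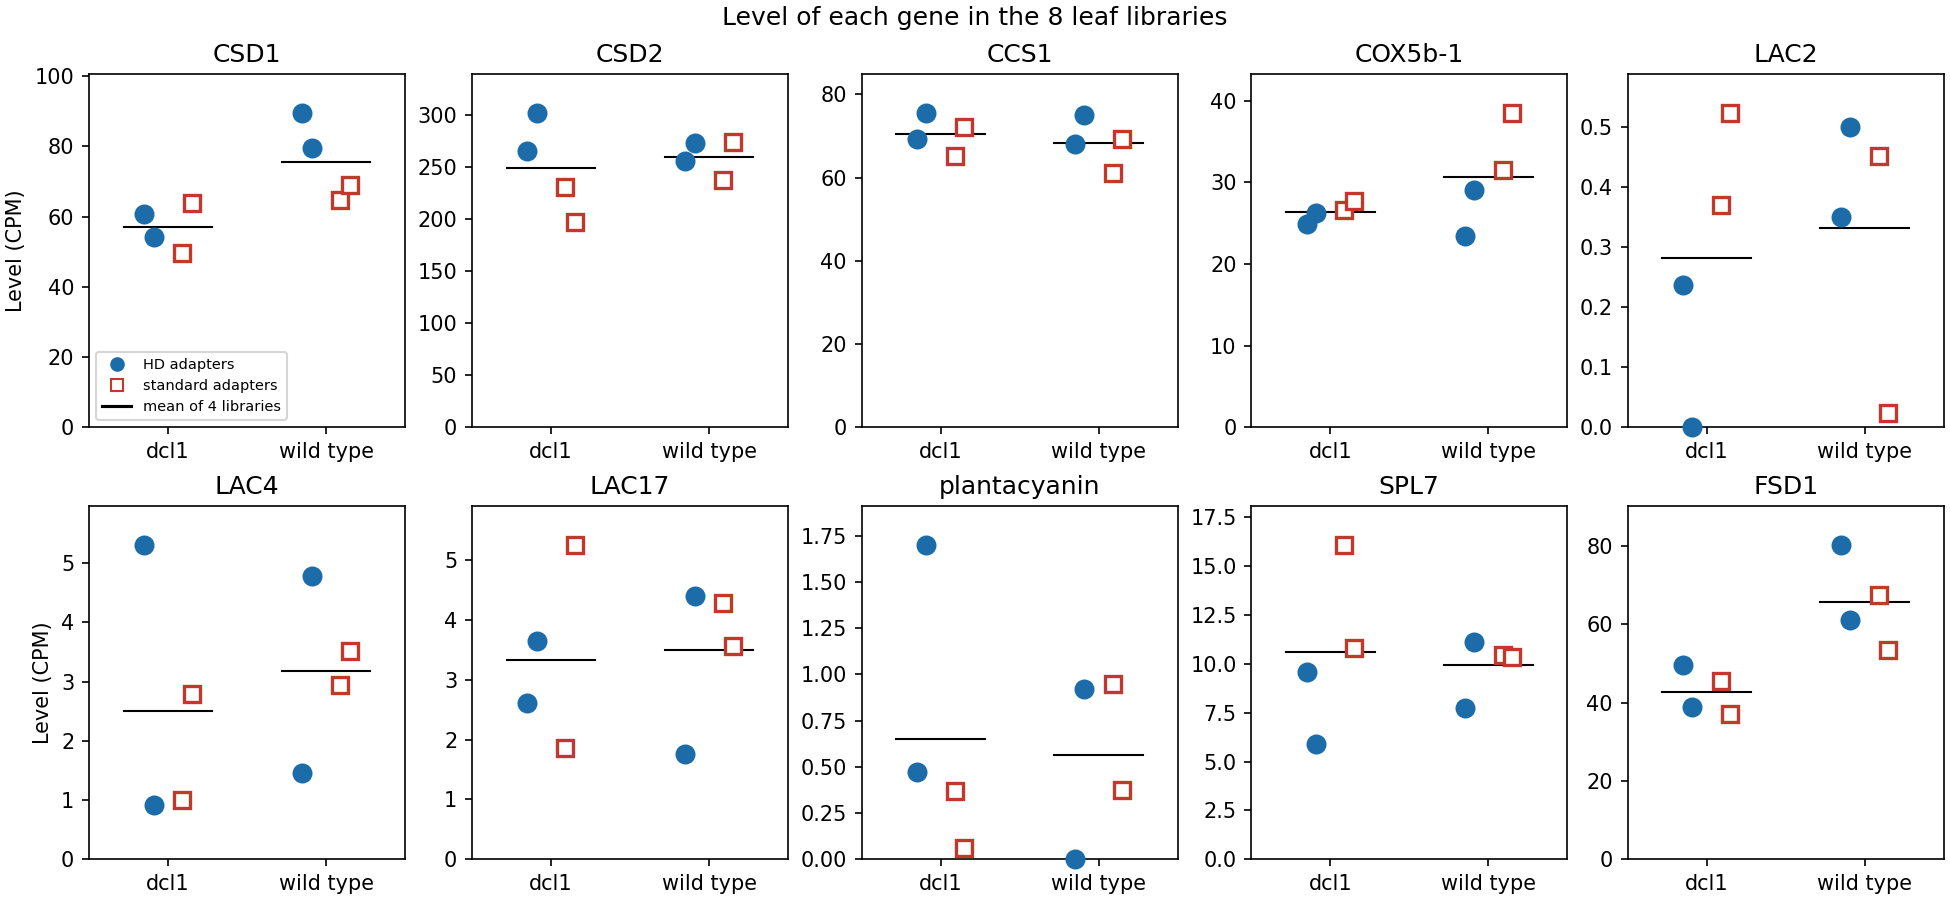
Level of each of the 10 genes in CPM (vertical axes from 0, scaled per gene) in the 4 dcl1 and 4 wild-type libraries, with circles for HD adapters, squares for standard adapters and a line at the mean of 4 libraries. The dcl1 and wild-type libraries lie apart for CSD1 and FSD1 and overlap for the other 8 genes. Over all loci tested, 15.8% lie apart.

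CSD1, the cytosolic copper/zinc superoxide dismutase, was lower in each dcl1 library than in each wild-type library, but the difference did not pass the threshold. The gene lies at chromosome 1, 2827060 to 2829315, plus strand (AT1G08830). It had 60.8 and 54.2 CPM in dcl1 with HD adapters, against 89.3 and 79.6 CPM in wild type with HD adapters. With standard adapters it had 49.5 and 63.8 CPM in dcl1, against 64.7 and 68.9 CPM in wild type. Over all loci tested, 15.8% had no overlap between the 4 dcl1 and the 4 wild-type libraries, and 8.17% had all dcl1 libraries below. The fold was -0.55 with HD adapters (SE 0.18, adjusted p = 0.0907 in edgeR) and -0.24 with standard adapters (SE 0.18, adjusted p = 0.598). On summed counts CSD1 averaged 59.4 ± 2.31 CPM in dcl1 and 75.1 ± 1.32 CPM in wild type (SD, n = 2 each), a fold of -0.34 (95% interval -0.65 to -0.03, edgeR adjusted p = 0.180). DESeq2 called it with HD adapters, at an adjusted p of 0.0444. A stretch of 211 bases of CSD1 overlaps AT1G08840 on the other strand, which had 2428 counts over the 8 libraries against 16075 for CSD1.

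CSD2, the chloroplast copper/zinc superoxide dismutase and a textbook miR398 target, did not differ past the threshold, and its groups overlapped. The gene lies at chromosome 2, 12014412 to 12016569, plus strand (AT2G28190). It had 266 and 302 CPM in dcl1 with HD adapters and 232 and 197 CPM in dcl1 with standard adapters. Wild type had 256 and 273 CPM with HD adapters and 238 and 274 CPM with standard adapters. The fold was 0.10 with HD adapters (edgeR adjusted p = 0.820) and -0.26 with standard adapters (edgeR adjusted p = 0.450). On summed counts CSD2 averaged 246 ± 15.8 CPM in dcl1 and 260 ± 20.5 CPM in wild type (SD, n = 2 each). That fold of -0.08 had a 95% interval from -0.38 to 0.22, or 0.769 to 1.16 times the wild-type level.

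CCS1, the copper chaperone that loads CSD1 and CSD2, stood nearly level between the genotypes (AT1G12520, chromosome 1, 4267074 to 4268982, minus strand). It had 69.4, 75.4, 65.1 and 72.2 CPM in the dcl1 libraries (HD, then standard), against 68.2, 75.1, 61.1 and 69.4 CPM in the wild-type libraries in the same order. Both groups covered almost the same range. The summed fold of 0.06 had a 95% interval from -0.25 to 0.38, and its sign turned in 1 of 10 alternative settings, so no direction is given.

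COX5b-1, a subunit of the mitochondrial cytochrome c oxidase, likewise did not pass (AT3G15640, chromosome 3, 5298991 to 5301745, plus strand). It had 24.9 and 26.3 CPM in dcl1 with HD adapters, against 23.5 and 29.0 CPM in wild type. With standard adapters it had 26.7 and 27.7 CPM in dcl1, below the 31.5 and 38.4 CPM of wild type. The summed fold was -0.22 (95% interval -0.57 to 0.14, edgeR adjusted p = 0.502).

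**Figure D2:**
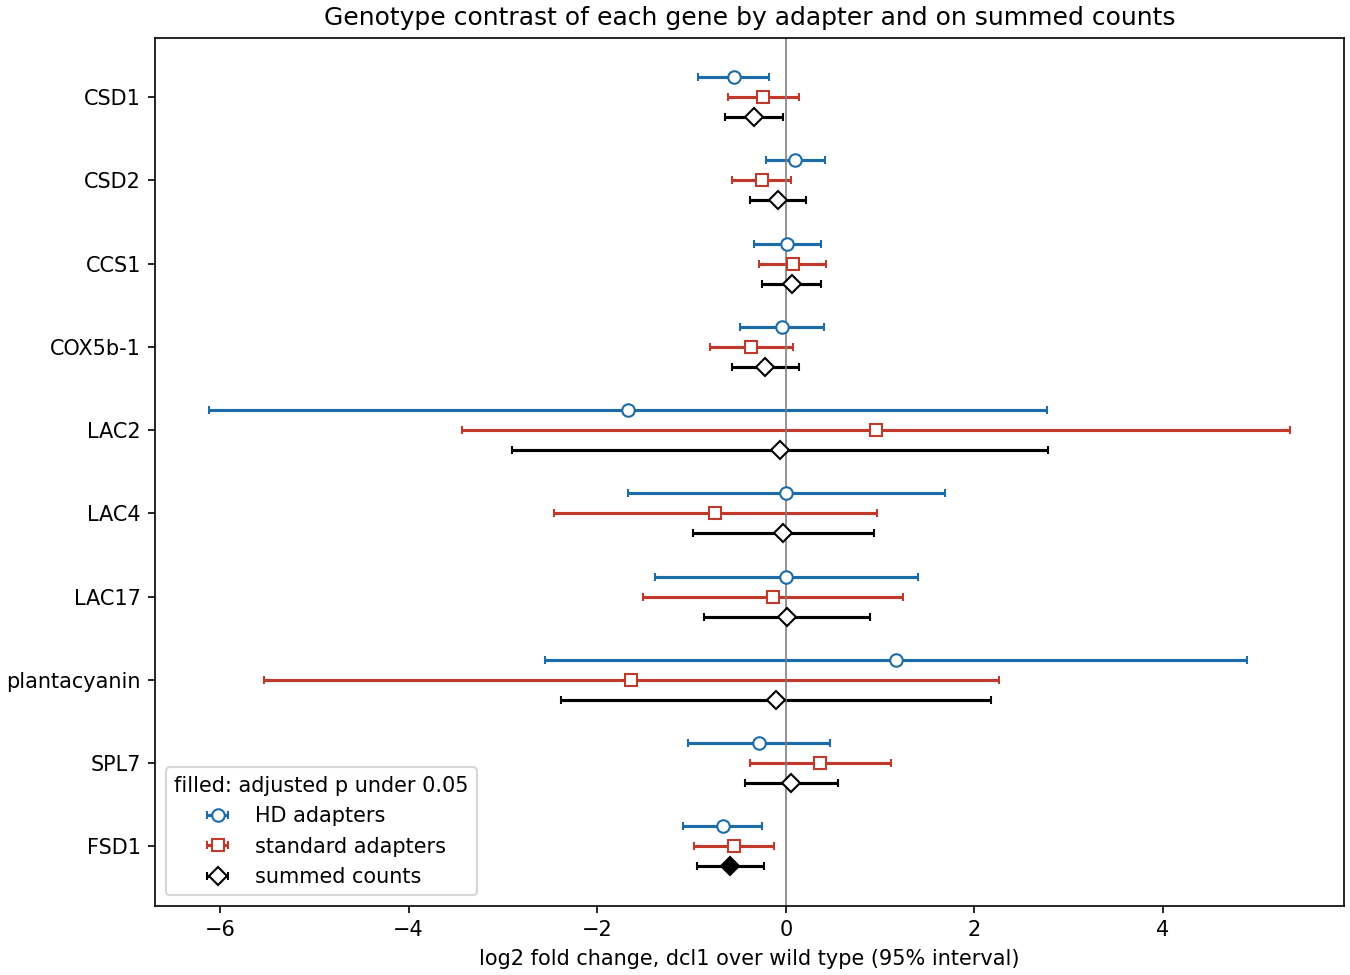
Log2 fold change of dcl1 over wild type (horizontal axis) with its 95% interval for each gene, from HD libraries (circles), standard libraries (squares) and summed counts (diamonds), filled where the adjusted p is under 0.05. The filled point is FSD1 on summed counts at -0.59, and the intervals of LAC2 and plantacyanin are the widest.

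The 3 laccases, copper oxidases that join lignin monomers in the cell wall, were weakly expressed in these leaves and none differed past the threshold. LAC4 (AT2G38080, chromosome 2, 15934244 to 15937616, plus strand) had 5.30, 0.910, 1.0 and 2.79 CPM in the dcl1 libraries (HD, then standard), against 1.45, 4.79, 2.94 and 3.51 CPM in wild type. Libraries of 1 genotype differed more than the genotypes did. The summed fold of LAC4 was -0.03 with a 95% interval from -0.99 to 0.93.

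LAC17 (AT5G60020, chromosome 5, 24167996 to 24170462, plus strand) had 2.61, 3.64, 1.85 and 5.25 CPM in the dcl1 libraries, against 1.75, 4.39, 4.29 and 3.56 CPM in wild type. Its summed fold was 0.01 (95% interval -0.87 to 0.90). AT5G60022 lies antisense within the same stretch and had 777 counts against 845 for LAC17, with 171 counts each in replicate 2 of dcl1 with standard adapters. Whether reads were counted by strand is not given in the sources used here, so reads of these loci cannot be told apart.

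LAC2 (AT2G29130, chromosome 2, 12524827 to 12527803, minus strand) had only 73 counts over all 8 libraries. It had 0.237, 0, 0.370 and 0.522 CPM in the dcl1 libraries, against 0.351, 0.499, 0.452 and 0.0234 CPM in wild type. The summed fold of -0.06 had a 95% interval from -2.90 to 2.78, so a difference was not detectable at this depth.

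Plantacyanin, a small blue copper protein of the cell wall and the miR408 target of the set, was also near the limit of detection (AT2G02850, chromosome 2, 826299 to 827994, minus strand). It had 133 counts in all, with 0.474, 1.70, 0.370 and 0.0614 CPM in the dcl1 libraries and 0, 0.923, 0.948 and 0.374 CPM in the wild-type libraries. The lowest and the highest values fell in different genotypes, and the groups overlapped. The summed fold was -0.10 (95% interval -2.39 to 2.18).

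SPL7, the regulator of the copper response, is itself no listed target of these microRNAs (AT5G18830, chromosome 5, 6275895 to 6280681, plus strand). It had 9.60, 5.89, 16.1 and 10.8 CPM in the dcl1 libraries, against 7.76, 11.1, 10.5 and 10.3 CPM in wild type. The dcl1 libraries lay on both sides of the wild-type ones. The summed fold was 0.06 (95% interval -0.44 to 0.56, edgeR adjusted p = 0.923).

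FSD1, the iron superoxide dismutase, fell in dcl1 on summed counts. The gene lies at chromosome 4, 12884300 to 12887011, minus strand (AT4G25100). With HD adapters it had 49.7 and 38.9 CPM in dcl1, against 80.2 and 61.2 CPM in wild type. With standard adapters it had 45.5 and 37.2 CPM in dcl1, against 67.4 and 53.6 CPM in wild type. All 4 dcl1 libraries lay below all 4 wild-type libraries, as they did for 8.17% of all loci tested. In each group replicate 2 was the lower one. On summed counts FSD1 averaged 43.4 ± 7.51 CPM in dcl1 and 65.3 ± 11.2 CPM in wild type (SD, n = 2 each). The fold was -0.59 (SE 0.171, 95% interval -0.95 to -0.23, edgeR adjusted p = 0.0396), or 0.666 times the wild-type level. Of the other 9 genes, none passed in that test.

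The FSD1 call rested on 2 RNA samples a genotype and ended without wild-type replicate 1 (fold -0.40, edgeR adjusted p = 0.208) or without dcl1 replicate 2 (fold -0.42, adjusted p = 0.297). It held in the other 8 of 10 alternatives, and over all of them the fold ran from -0.78 to -0.40. Within an adapter, the fold was -0.67 with HD adapters (edgeR adjusted p = 0.0654) and -0.55 with standard adapters (edgeR adjusted p = 0.153). The difference between these folds was -0.12 (95% interval -0.72 to 0.47) and did not pass.

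The stretch of 250 bases before the start of FSD1 is shown because GTAC is the core of the element that SPL7 binds. It lies at chr4:12887012-12887261 on the minus strand of TAIR10.1 and is printed 5′ to 3′, with GTAC in capitals, 145 bases before the start.
FSD1 promoter: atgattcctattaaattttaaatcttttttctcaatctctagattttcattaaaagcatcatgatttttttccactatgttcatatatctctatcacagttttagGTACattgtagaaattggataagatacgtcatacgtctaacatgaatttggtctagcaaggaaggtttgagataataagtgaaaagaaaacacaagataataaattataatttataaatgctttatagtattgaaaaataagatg

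GTAC reads the same on both strands and occurred at least once in 34.3% of 27443 stretches of this length, and at least 2 times in 7.67%. CSD1 and plantacyanin had 2, CCS1, LAC17 and FSD1 had 1, and CSD2, COX5b-1, LAC2, LAC4 and SPL7 had 0. These are letter matches in a short window and are no measure of binding.

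Per kilobase of transcript, CSD2 led the set with a median of 248 CPM over the 8 libraries, above CSD1 at 73.6, CCS1 at 55.4, FSD1 at 40.3 and COX5b-1 at 22.9. SPL7 followed at 3.38, LAC17 at 1.76, LAC4 at 1.28, plantacyanin at 0.427 and LAC2 at 0.165. The ranges over libraries kept CSD2 apart from CSD1, and COX5b-1 apart from SPL7. Every other pair of neighbours in this order overlapped.

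Within the superoxide dismutase family, FSD1 and FSD3 moved in opposite directions on summed counts, and neither passed by edgeR within an adapter. FSD3, an iron superoxide dismutase of the chloroplast nucleoid, had between 10.9 and 18.4 CPM in the dcl1 libraries, against 5.21 to 7.18 CPM in wild type, with no overlap. On summed counts it rose to 13.5 ± 1.70 CPM in dcl1, against 6.19 ± 0.0419 CPM in wild type (SD, n = 2 each), a fold of 1.13 (SE 0.236, edgeR adjusted p = 0.00521). Within an adapter FSD3 did not pass by edgeR, with folds of 1.16 for HD adapters (edgeR adjusted p = 0.0610) and 1.17 for standard adapters (edgeR adjusted p = 0.0582). DESeq2 called FSD3 with HD adapters (adjusted p = 0.0216) and with standard adapters (adjusted p = 0.0190). The other 3 dismutases of this list, FSD2, CSD3 and the mitochondrial manganese enzyme MSD1, were not called. FSD1 made up 6.43% to 8.43% of the dismutase mRNA per kilobase in the dcl1 libraries and 8.78% to 12.6% in the wild-type libraries. CSD2 made up 47.1% to 60.7% in dcl1 and 48.8% to 54.7% in wild type, where the ranges overlap.

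**Figure D3:**
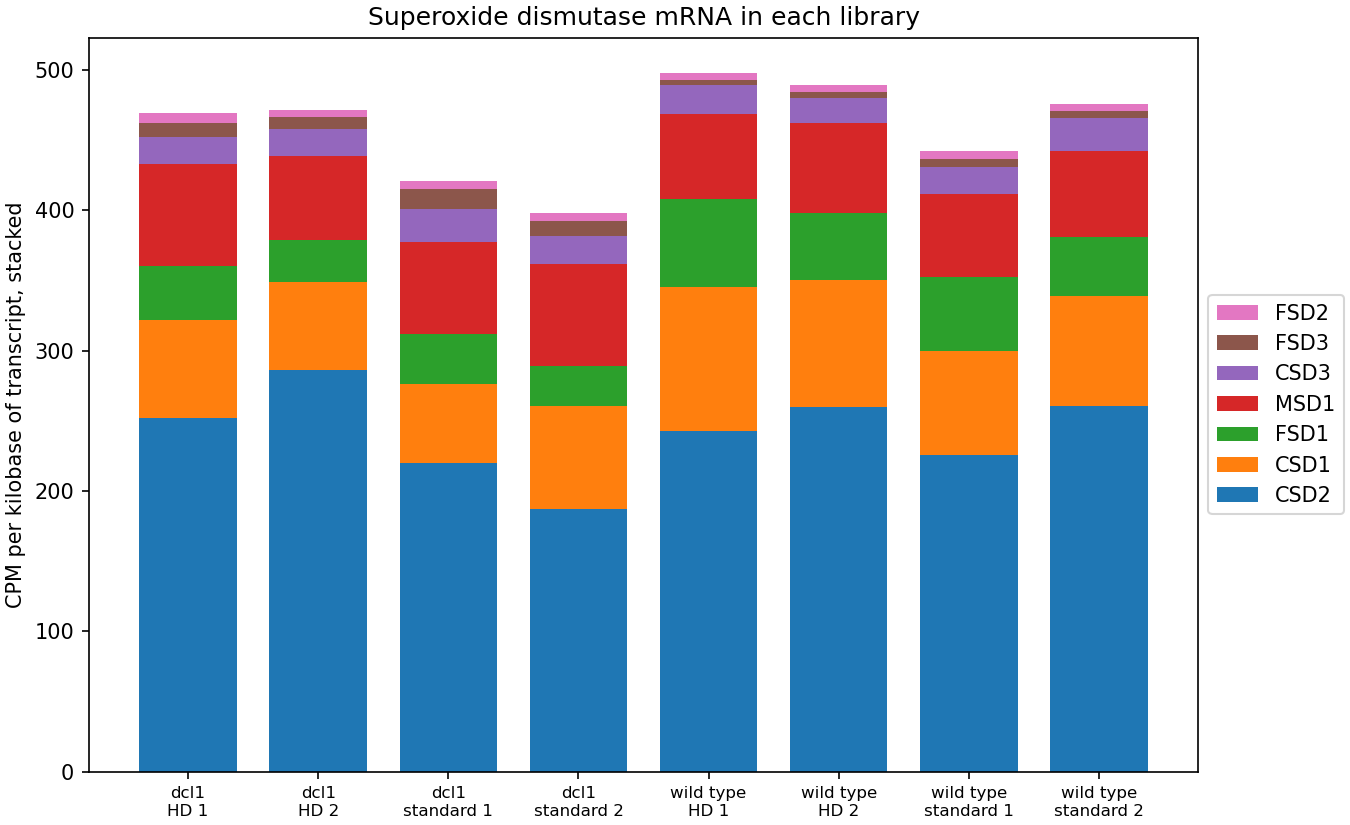
Level of the 7 superoxide dismutase mRNAs in CPM per kilobase of transcript (vertical axis), stacked for each of the 4 dcl1 and 4 wild-type libraries. CSD2 is the widest band in each library, and the FSD1 band is narrower in the dcl1 libraries (29.0 to 38.8) than in the wild-type libraries (41.8 to 62.6).

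Other genes of copper uptake and the copper deficiency response showed no call on summed counts. Of 14 listed genes 10 were tested, 0 were called by edgeR, 2 had an unadjusted p under 0.05 and 0 were called by DESeq2. Over all 19711 loci edgeR called 8.85%, and 0 of 10 is near that share. Their median fold was -0.19. YSL3, a transporter of metal-nicotianamine complexes, had 18.9 to 29.1 CPM in dcl1 and 30.4 to 42.8 CPM in wild type, a fold of -0.53 (edgeR adjusted p = 0.0675). It was called in 5 of 10 alternatives, among them those without wild-type replicate 1 (adjusted p = 0.0293) or without dcl1 replicate 2. COPT5, a copper exporter of the vacuole, had 33.5 to 52.7 CPM in dcl1 and 38.9 to 76.0 CPM in wild type, a fold of -0.39 (edgeR adjusted p = 0.195). Without dcl1 replicate 1 it was called, at a fold of -0.66 (adjusted p = 0.0377).

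Genes of copper delivery and other copper proteins likewise held no call: all 13 were tested, 0 were called by edgeR, 1 had an unadjusted p under 0.05 and 0 were called by DESeq2. This too is to be read against the 8.85% called over all loci. The median fold was 0.04. ATX1, a cytosolic copper chaperone, averaged 21.6 ± 1.28 CPM in dcl1 and 29.6 ± 4.82 CPM in wild type (SD, n = 2 each; edgeR adjusted p = 0.127). PAA1, the copper pump of the chloroplast envelope, averaged 35.5 ± 2.44 CPM in dcl1 and 28.5 ± 2.14 CPM in wild type (SD, n = 2 each; edgeR adjusted p = 0.263).

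Among the 14 other laccases 5 were tested and 1 was called on summed counts, where 8.85% of all loci were called. LAC8 had 2 counts over the dcl1 libraries and 152 over the wild-type libraries. That is a ratio of 0.0144 per count sequenced, with an exact 95% counting interval from 0.00173 to 0.0528, which covers counting error only. The edgeR adjusted p was 0.0148 on summed counts, against 0.162 with HD adapters and 0.109 with standard adapters. DESeq2 called LAC8 lower with HD adapters (adjusted p = 0.0308) and with standard adapters (adjusted p = 0.0156). The summed edgeR call ended without wild-type replicate 2, at a fitted fold of -5.9. The 7 genes of the copper microRNAs themselves (the miR398, miR397, miR408 and miR857 loci) had 0 entries in these files, so their transcripts were not analysed here.

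Lignin synthesis enzymes, which make the monomers that laccases join, held 4 calls on summed counts among 20 tested genes of a xylem and lignin list, all lower in dcl1, where 4.55% of all loci were called lower. With standard adapters the same 4 were called, and with HD adapters 0 of the 20 were by edgeR, with 5 at an unadjusted p under 0.05 and 0 called by DESeq2. Of all 19521 loci, 460 were called lower with standard adapters and 442 with HD adapters. Each of the 4 standard-adapter calls ended when some single library was left out. CAD5 did not pass on the 4 standard libraries alone (edgeR adjusted p = 0.0706). On summed counts 8 of the 20 folds were positive. The 4 genes called on summed counts were FAH1 with a fold of -0.85 (edgeR adjusted p = 0.0045), CAD5 with -1.12 (adjusted p = 0.00656), COMT1 with -0.71 (adjusted p = 0.0117) and 4CL1 with -0.56 (adjusted p = 0.0408). Without wild-type replicate 1 the calls of COMT1 (adjusted p = 0.108) and 4CL1 (adjusted p = 0.198) ended, and without dcl1 replicate 2 that of 4CL1 did (adjusted p = 0.209). The secondary wall cellulose synthases were not called, and were chosen for mention after their values were seen. CESA4 averaged 7.51 ± 0.744 CPM in dcl1 and 7.39 ± 0.589 CPM in wild type (SD, n = 2 each). On summed counts CESA7 had 2.06 and 1.95 CPM in dcl1, below the 2.51 and 3.30 CPM of wild type. CESA8 had 2.69 and 4.01 CPM in dcl1, against 3.38 and 3.07 CPM in wild type. The summed level of the list was 364 to 401 CPM in dcl1 and 389 to 533 CPM in wild type.

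Iron genes were listed because FSD1 carries iron. Of 14 tested, 4 rose and 1 fell in dcl1 on summed counts, where 4.3% of all loci were called higher, and the median fold was 0.94. With HD adapters 2 were called higher and 1 lower, and with standard adapters 3 higher and 1 lower. Of all 19521 loci, 404 were called higher and 442 lower with HD adapters, and 366 higher and 460 lower with standard adapters. The BTS and FER4 calls with HD adapters ended when some single library was left out. With standard adapters those of BHLH38, BTS and FER4 did. OPT3, a phloem transporter of iron and copper, had 138 to 190 CPM in dcl1 and 69.8 to 90.3 CPM in wild type, a fold of 1.0 (edgeR adjusted p = 0.000347). The iron deficiency regulators BHLH38 (fold 2.19, adjusted p = 0.00659) and BHLH39 (fold 2.52, adjusted p = 0.0419) and the ubiquitin ligase BTS (fold 0.61, adjusted p = 0.0109) also rose. FER4, a ferritin that stores iron, fell to 5.33 ± 1.10 CPM in dcl1, against 13.7 ± 1.54 CPM in wild type (SD, n = 2 each), a fold of -1.36 (edgeR adjusted p = 0.00203). The BHLH39 call ended without wild-type replicate 2 (adjusted p = 0.156) or dcl1 replicate 1 (adjusted p = 0.152), and the BTS call ended without dcl1 replicate 2 (adjusted p = 0.108). DESeq2 called 7 of these genes higher and 1 lower, and over all 19711 loci it called 1002 higher and 1089 lower.

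**Figure D4:**
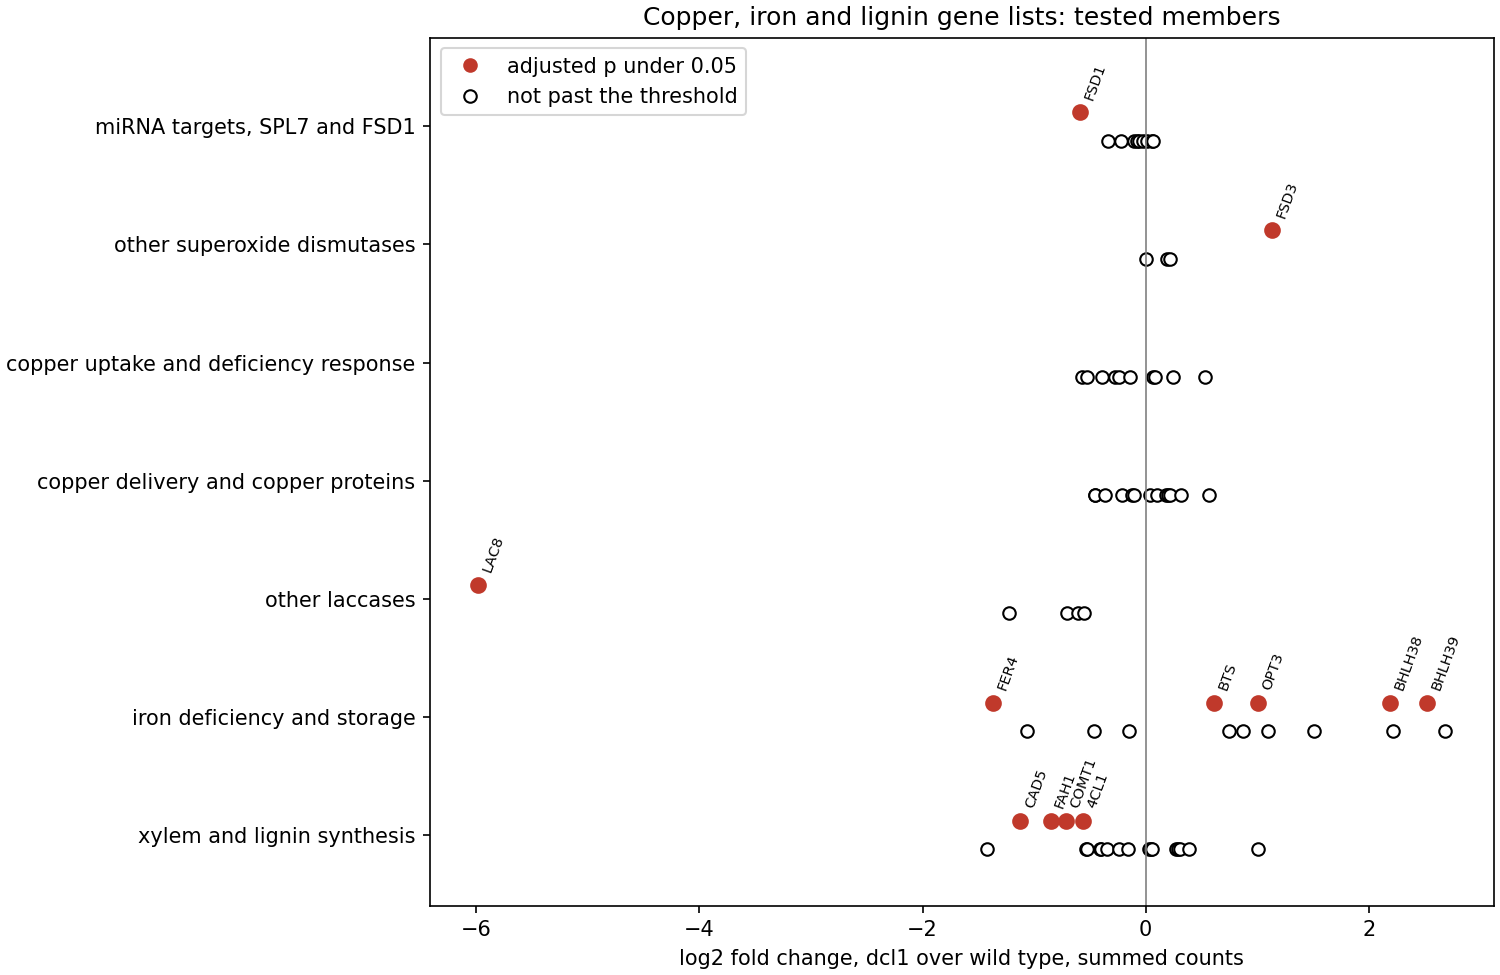
Log2 fold change of dcl1 over wild type on summed counts (horizontal axis) for the tested genes of each list (rows), with filled points at an adjusted p under 0.05. The copper uptake and copper delivery lists have no filled point, the iron list has 5 and the xylem and lignin list has 4, and LAC8 at -5.98 is a fitted value on 2 dcl1 counts.

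The labelled genotype and tissue were checked on other genes. AGO1, the effector of microRNAs and a target of miR168, averaged 244 ± 1.50 CPM in dcl1 and 71.8 ± 3.81 CPM in wild type (SD, n = 2 each; edgeR adjusted p = 6.35e-07). DCL1 mRNA averaged 22.9 ± 0.0403 CPM in dcl1 and 20.7 ± 0.0309 CPM in wild type (edgeR adjusted p = 0.701), so its level does not check the labels. The summed level of 6 leaf markers was 56470 to 70186 CPM in dcl1 and 57058 to 76404 CPM in wild type. Of these 6 LHCB2.3, a light-harvesting protein, was called, with a fold of -0.74 (adjusted p = 0.00772), and the call ended without wild-type replicate 1 (adjusted p = 0.0728). The 3 root markers summed to 1.53 to 3.16 CPM in dcl1 and 1.90 to 3.07 CPM in wild type. Of the 6 flower and seed markers, summing to 0 to 0.485 CPM in dcl1 and 0.0501 to 1.17 CPM in wild type, CRU3 and OLEO1 had 0 counts in each library.

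Between adapters, 0 of the 10 genes were called, where 1.19% of loci were, with 1 at an unadjusted p under 0.05 and 0 called by DESeq2. That gene was CSD2, with 274 ± 19.7 CPM in HD libraries and 235 ± 31.5 CPM in standard libraries (SD, n = 4 each), a log2 fold of HD over standard of 0.23 (SE 0.0874, edgeR adjusted p = 0.288). The genotype effect was called as different between adapters in 0 of the 10 genes, where 0.0256% of loci were called. Of the 10 genes, 0 had an unadjusted p under 0.05 and 0 were called by DESeq2. In simulated data this test found 15% of genes with a log2 difference of 1, so 0 calls do not show equal effects. Libraries matched by replicate number as 1 RNA sample differed between adapters by a factor of 1.05 to 1.19 for FSD1, 1.04 to 1.12 for CCS1 and 1.0 to 1.53 for CSD2. Among pairs with counts in both libraries the factor reached 21.3 for LAC2, on 1 count in the standard library, and 27.7 for plantacyanin. Each of these genes had a further pair with 0 counts in the HD library, which gives no factor.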

How the data were processed

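The deposited files hold whole-number read counts per locus, without a header. Values start at 1, and loci missing from a file were set to 0. Per the submitters' processing notes the build was TAIR 10. No aligner, counter or strand setting is given in the sources used here. Of 22546 loci, 22444 matched the TAIR10.1 annotation by identifier, 102 did not, and no 50-base word of the 10 mRNAs occurred elsewhere in that genome.

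Counts were analysed here with edgeR 4.0.16 in R 4.3.3 (filterByExpr, TMM, two-sided quasi-likelihood F test, Benjamini-Hochberg over all loci). A fit to 8 libraries with 1 mean per group gave the genotype contrast within each adapter and its interaction with adapter. Counts of the HD and the standard library of each RNA sample were summed for the genotype contrast over both. The adapter contrast had the RNA sample as a block, since the study's design text says that the same RNA was used. Matching libraries to an RNA sample by replicate number was an assumption. The SE was the size of the fold divided by the root of the F statistic. The scripts were tested on simulated data. Alternatives were DESeq2 1.42.0, its size factors, no filter, no ribosomal RNA loci, leaving out each library or RNA sample, the replicate number as a block, and other sets of libraries.

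The members, lists and tests were chosen with earlier results of these data known. Named were the 10 members, DCL1 and AGO1. From each list came up to 6 called genes or, with none called, the 2 with the smallest p, and for CSD2 and FSD1 the 3 most alike loci. Sites were scored 1 per mismatch, 0.5 per G:U pair and 2 per bulged base, with mismatches and G:U pairs at microRNA bases 2 to 12 doubled. Counting intervals and 0 counts cover counting error only.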

Additional observations from a re-analysis of the deposited data

How the results depend on the processing

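FSD1 on summed counts kept its direction in 10 of 10 alternatives and was called in 8. Leaving out 1 RNA sample at a time gave folds from -0.78 to -0.40 and 0 to 1 called genes of the 10, with 0 called without wild-type replicate 1 or dcl1 replicate 2, and treating the 8 libraries as independent gave 2, FSD1 and CSD1 (adjusted p = 0.0416). With HD adapters, where 0 of the 10 were called, no filter on low counts gave 1 and DESeq2 gave 2. Leaving out 1 library at a time gave 0 to 1, and FSD1 was called in 8 of 14 alternatives. Over all 14 its fold ran from -0.85 to -0.44. Of all loci, 846 were called with HD adapters, against 1332 without the filter, 1222 by DESeq2 and 461 to 1089 without 1 library. With standard adapters 826 were called, against 1247 by DESeq2 and 418 to 996 without 1 library. The interaction had 5 called loci, against 3 with DESeq2 size factors, 16 without the filter, 3 without ribosomal RNA loci and 3 to 13 without 1 library. The adapter contrast had 232, against 397 without the filter and 375 by DESeq2. No call or value past the threshold changed sign. Among genes not called on summed counts, LAC17 kept its sign in 6 of 10 alternatives and LAC2 in 7 of 9. LAC4, plantacyanin and SPL7 kept theirs in 8 of 10 and CCS1 in 9 of 10, so no direction is read from these 6 genes. CSD1, CSD2 and COX5b-1 kept theirs in 10 of 10. The cause of these changes was not tested.

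The design text gives both libraries the same RNA samples, but pairing them by replicate number was an assumption. Their deviations correlated at 0.286 in wild type and 0.0952 in dcl1 (Pearson, 9015 loci). Across genotypes the correlation was -0.033 to 0.016, so there the samples share only a number. With the replicate block 1 of the 10 genes, FSD1, was called with HD adapters (fold -0.67, adjusted p = 0.0165). The adapter contrast without the block of RNA samples had 96 called loci.

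Depth limits LAC2 (73 counts), plantacyanin (133 counts) and LAC8 (154 counts), whose intervals span several log2 units.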

Other observations

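Loci whose levels followed CSD2 or FSD1 most closely were looked up as a description, by the Pearson correlation of log2 CPM over the 8 libraries, among 9015 loci with a mean of at least 10 CPM. The libraries come from 4 RNA samples and are not independent. Closest to CSD2 were AT3G52610 (r = 0.959), the diacylglycerol kinase gene DGK1 (r = 0.954) and the phytochrome A signalling gene FHY3 (r = 0.951). FHY3 had 33.9 to 47.4 CPM in the dcl1 libraries and 38.1 to 46.2 CPM in the wild-type libraries. Closest to FSD1 were PAL1 (r = 0.984), which encodes the first enzyme of phenylpropanoid synthesis, the transcription factor gene TCP24 (r = 0.972) and AT5G10760 (r = 0.967). PAL1 had 15.2 to 19.9 CPM in the dcl1 libraries and 22.7 to 30.7 CPM in the wild-type libraries, and its summed fold of -0.53 did not pass the threshold (edgeR adjusted p = 0.0961). AT5G10760 had 34.4 to 46.4 CPM in the dcl1 libraries and 63.0 to 136 CPM in the wild-type libraries.

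The summed level of the 14 copper uptake genes was 232 to 259 CPM in the dcl1 libraries and 284 to 296 CPM in the wild-type libraries, without overlap. The iron list (415 to 476 CPM in dcl1 and 281 to 295 CPM in wild type) and the other dismutases (95.9 to 114 CPM in dcl1 and 91.9 to 95.8 CPM in wild type) did not overlap either. Most of the iron sum came from BTS and OPT3, both called higher on summed counts. BTS had 200 to 240 CPM in dcl1 and 127 to 155 CPM in wild type. OPT3 had 138 to 190 CPM in dcl1 and 69.8 to 90.3 CPM in wild type. Of 14 tested iron genes, 4 had a negative fold on summed counts. For the dismutases the closest values were 95.93 CPM in dcl1 (HD, replicate 2) and 95.75 CPM in wild type (standard, replicate 2). MSD1, the highest of these dismutases, overlapped between the genotypes. Of single loci 15.8% did not overlap, which is no share for sums of genes. The copper delivery genes summed to 3309 to 3466 CPM in the dcl1 libraries and 2805 to 3396 CPM in the wild-type libraries, which overlap.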
